A study of Homo sapiens with 3 samples.

Results

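Carbonic anhydrases are zinc enzymes that convert carbon dioxide and water to bicarbonate and a proton and back. The 5 genes described here are CA2 and CA13, which encode cytosolic enzymes, CA5B, which encodes a mitochondrial enzyme, and CA9 and CA12, which encode enzymes anchored in the plasma membrane with the active site outside the cell. They are 5 of 15 carbonic anhydrase genes looked up, and of 52019 named loci that could be matched across all 3 libraries. They were taken by gene name, and the choice was made because CA2 was lower and CA9 higher in the HNRNPU knockdown, so those differences are given as a description.

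RNA came from PLC, an established line of human hepatocellular carcinoma cells, infected for 48 hours with hairpin viruses. The groups were shHNRNPU, in which HNRNPU was targeted, the gene of hnRNP U, an RNA-binding protein of the nucleus, shDIS3L2, in which DIS3L2 was targeted, an exoribonuclease that acts on uridylated RNA, and control, with a non-targeting hairpin. Each group was 1 library, and the labels use the plural for the hairpins of each target without saying whether they were pooled. There is therefore no replicate error and no p-value. All groups share the cell line, the viral infection and the culture time, and both knockdowns are set against the same control library.

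In the body, fast hydration of carbon dioxide by cytosolic enzymes such as CA2 serves acid secretion, gas transport and bicarbonate movement across epithelia. The mitochondrial enzymes supply bicarbonate to carboxylases of gluconeogenesis and to urea synthesis in liver. CA9 and CA12 sit on many tumour cells, where they act on the pH outside the cell, and CA9 is a classical target of the hypoxia-inducible factor HIF-1, whose binding element lies just upstream of its start.

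The sequences upstream of CA9 and CA12 are shown because both are membrane enzymes known to be induced by hypoxia, and only CA9 was measured above 1 FPKM in any library. The 250 bases before each RefSeq start (GRCh38.p14, 5′ to 3′ on the strand of the gene) are in lower case, with matches to ACGTG, the core letters of a hypoxia response element, in capitals. Both strands were searched, so that a match on the opposite strand reads CACGT.
CA9, chr9:35673678-35673927, plus strand: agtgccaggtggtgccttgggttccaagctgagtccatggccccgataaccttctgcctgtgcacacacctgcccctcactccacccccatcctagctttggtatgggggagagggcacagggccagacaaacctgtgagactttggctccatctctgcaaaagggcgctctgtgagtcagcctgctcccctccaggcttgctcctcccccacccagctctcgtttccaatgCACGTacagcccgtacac
CA12, chr15:63381847-63382096, minus strand: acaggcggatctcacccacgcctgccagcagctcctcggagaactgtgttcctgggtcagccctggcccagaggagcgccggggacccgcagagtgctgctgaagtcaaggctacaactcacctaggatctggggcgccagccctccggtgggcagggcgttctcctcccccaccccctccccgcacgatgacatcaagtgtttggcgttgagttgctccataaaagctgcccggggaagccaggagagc
CA9 held 1 match, on the opposite strand, starting 18 bases before the start, and CA12 held 0 in this window. Of 35116 RefSeq promoters of the same length, 18.5% held the letters on either strand. A match describes the letters only.

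Levels are FPKM, fragment counts scaled by transcript length and by library size. A range in parentheses is the interval deposited with the value, which speaks of that library alone and leaves out differences between cultures. Depth, estimated from single-exon genes, was 20.003 M fragments in shHNRNPU, 18.6 M in shDIS3L2 and 23.0 M in control. The median interval reached 11.4%, 11.7% and 10.7% of the FPKM to either side in shHNRNPU, shDIS3L2 and control. As a check on the labels, HNRNPU stood at 33.5 FPKM in shHNRNPU, against 178 in control, and DIS3L2 at 3.23 FPKM in shDIS3L2, against 7.61 in control. All 12 hepatocyte markers were at 1 FPKM or more in shHNRNPU and control, and 11 in shDIS3L2, where ALB was at 0.856 FPKM. The 7 fibroblast and 3 endothelial markers measured were all below 1 FPKM in every library, and the red cell genes HBB, HBG1 and ALAS2 were listed at 0 in each. Other markers of blood cells and bile ducts were measured, among them HBA1 at 44.9 FPKM in shHNRNPU, 12.02 FPKM in shDIS3L2 and 8.94 FPKM in control. LYZ was highest in control, at 70.8 FPKM in shHNRNPU, 33.5 FPKM in shDIS3L2 and 181 FPKM in control. The bile duct marker EPCAM stood at 77.7 FPKM in shHNRNPU, 88.1 FPKM in shDIS3L2 and 69.0 FPKM in control, and KRT7 and SOX9 at 3.09 FPKM or more in every library. The bile duct markers CFTR and SPP1 were below 1 FPKM in every library. KRT19 stood at 0.679 FPKM in shHNRNPU, 1.71 FPKM in shDIS3L2 and 0.568 FPKM in control. In bulk RNA, fewer cells with a transcript and less transcript per cell cannot be told apart.

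CA2 made up 72.7% of the summed FPKM of the 12 catalytic carbonic anhydrase genes in control and was far lower in the HNRNPU knockdown. The gene encodes the fast, widely expressed cytosolic enzyme, on chromosome 8 at 86376081 to 86393722 (hg19). It stood at 8.35 FPKM (7.18 to 9.52) in shHNRNPU, 69.8 FPKM (65.6 to 74.1) in shDIS3L2 and 99.3 FPKM (93.1 to 106) in control. None of these intervals overlapped, so shHNRNPU was lowest, shDIS3L2 in the middle and control highest. CA2 was 11.9-fold lower in shHNRNPU than in control and 8.36-fold lower than in shDIS3L2, and 1.42-fold lower in shDIS3L2 than in control. On the scale of log2(FPKM + 1), used from here on and called the log2 ratio, these differences were -3.42, -2.92 and -0.50. Calls of higher or lower needed a log2 ratio of at least 1 or at most -1 and intervals that did not overlap.

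CA2 was thus called lower in shHNRNPU against both other libraries, and passed neither way in shDIS3L2 against control. Among 10854 loci with a mean FPKM of at least 1 and above 0 in both shHNRNPU and control, 3 had a lower log2 ratio than CA2 (median of all, 0.13). Among 10869 such loci in shDIS3L2 and control, 17.5% had a lower one (median 0.10). In control, CA2 stood above 88.6% of the 11405 loci with a mean FPKM of at least 1.

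**Figure D1:**
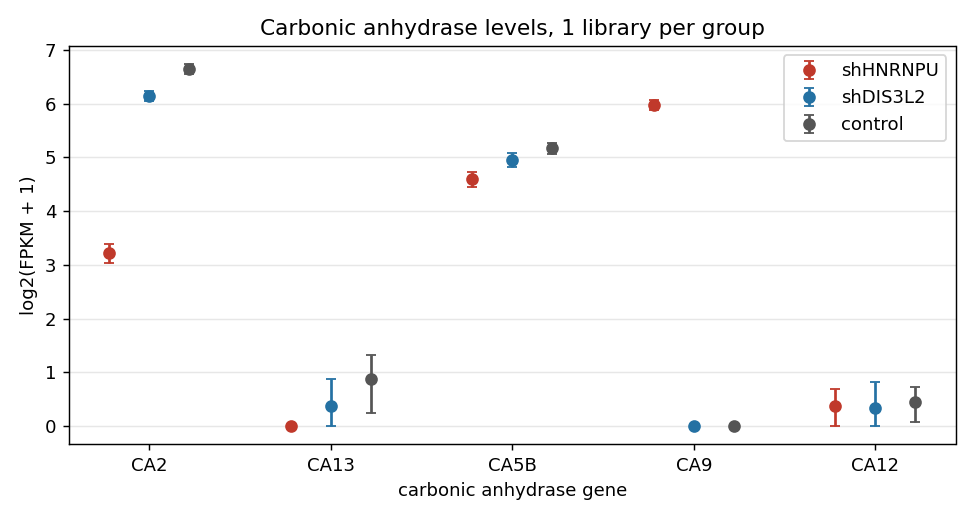
Level of the 5 carbonic anhydrases as log2(FPKM + 1) on the vertical axis in shHNRNPU, shDIS3L2 and control, 1 library each. Points are the deposited FPKM and bars their deposited intervals. CA2 is lowest in shHNRNPU (8.35 FPKM), CA9 is above 0 in shHNRNPU only (62.0 FPKM), and CA12 and CA13 stay below 1 FPKM.

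CA9 ran the other way, with a value in shHNRNPU only. It stood at 62.0 FPKM (57.9 to 66.1) in shHNRNPU and was listed at 0, with bounds of 0, in both shDIS3L2 and control. In shHNRNPU that level lay above 82.9% of the 11405 loci. No fold is given, since an exact 0 in these tables can be a failed estimate. With the 0s taken as listed, CA9 was called higher in shHNRNPU against both other libraries, and with genes listed at 0 left out no carbonic anhydrase was.

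The region of CA9 held other such 0s. CA9 lies on chromosome 9 at 35673853 to 35681156 (hg19), and its first 2011 bases overlap the locus of ARHGEF39, a guanine nucleotide exchange factor, in every library. ARHGEF39 stood at 64.7 FPKM in shHNRNPU, 40.9 FPKM in shDIS3L2 and 83.3 FPKM in control. The locus of the tropomyosin gene TPM2 lies 832 bases beyond the other end, and the gene stood at 1399 FPKM in shHNRNPU, 3291 FPKM in shDIS3L2 and 1066 FPKM in control. No source used here says that strand was kept in the libraries, so reads from the overlap of the 2 loci could not be told apart.

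Of 11 named genes within 100 kb of CA9 and with a mean of at least 1 FPKM, 2 were listed at 0 in a library. CCDC107 was listed at 0 in shHNRNPU and control and stood at 136 FPKM (127 to 145) in shDIS3L2. RGP1, which serves membrane traffic at the Golgi, stood at 41.4 FPKM in shHNRNPU and 29.9 FPKM in shDIS3L2 and was listed at 0 in control. Of the 52019 loci, 55 stood at 5 FPKM or more in shHNRNPU and at 0 in both other libraries. The same was seen for 84 loci with a value in shDIS3L2 only and 68 in control only, so it was not particular to shHNRNPU. In all, 13 loci, CA9 among them, were listed at 0 in shDIS3L2 and control and at 50 FPKM or more in shHNRNPU. One of them, picked after the values were seen, was POLR1E, a subunit of RNA polymerase I, the enzyme that makes ribosomal RNA in every cell, at 106 FPKM in shHNRNPU. Whether the 0s of CA9 are absent transcript or failed estimates was not tested.

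RMRP, the RNA of a ribonuclease complex, lies 35657748 to 35658015 on the same chromosome. It was called higher in shHNRNPU at 166 FPKM (128 to 205), against 26.0 FPKM (14.6 to 37.4) in control, and stood at 15.5 FPKM in shDIS3L2. CD72 and the kinase gene TESK1 were called lower there, with CD72 at 3.28 FPKM against 22.6 FPKM in control and TESK1 at 17.9 FPKM against 40.6 FPKM in control. Of the 11 neighbours of CA9, 2 were called higher in shHNRNPU against control, 1 of them RGP1 with its 0 in control, and 2 lower. Of all loci, 7.47% were called higher and 6.87% lower. NPR2 and RP11-112J3.16, counted as separate names among the 11, had the same bounds and the same value in control, 1.75 FPKM.

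**Figure D2:**
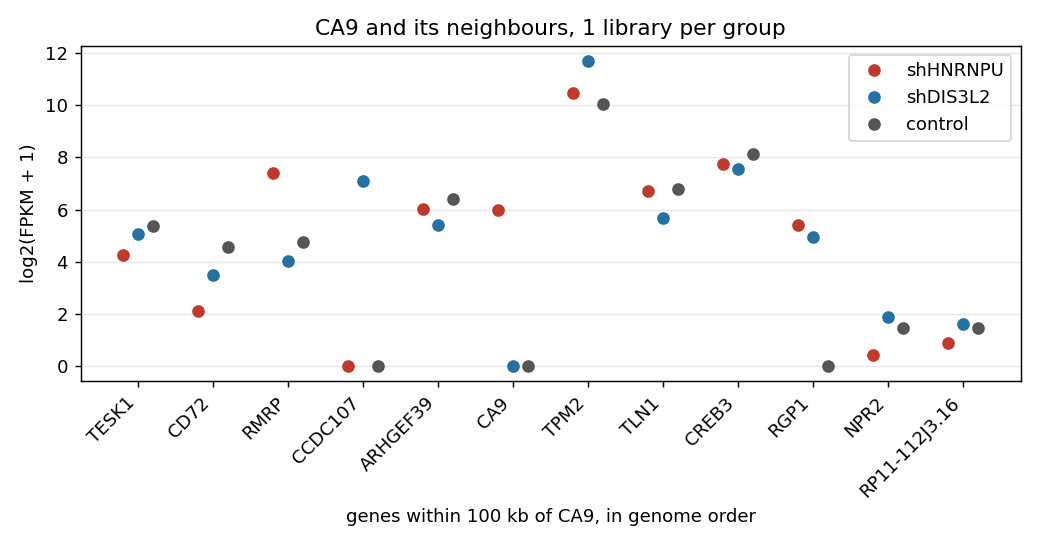
CA9 and the genes within 100 kb of it, in genome order on the horizontal axis, with log2(FPKM + 1) on the vertical axis and 1 point per library. Points at 0 mark CA9 in shDIS3L2 and control, CCDC107 in shHNRNPU and control, and RGP1 in control.

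CA5B, the mitochondrial enzyme, had the smallest difference between shHNRNPU and control of the 3 members with a mean above 1 FPKM. Its locus on the X chromosome at 15693055 to 15805747 (hg19) was merged in every library with the pseudogene CA5BP1, so the value belongs to both. It stood at 23.2 FPKM (20.8 to 25.6) in shHNRNPU, 30.1 FPKM (27.4 to 32.7) in shDIS3L2 and 34.9 FPKM (32.3 to 37.6) in control. The interval of shHNRNPU lay below both others, while those of shDIS3L2 and control overlapped. The log2 ratio was -0.57 in shHNRNPU against control, -0.21 in shDIS3L2 against control and -0.36 in shHNRNPU against shDIS3L2, and none was called. CA5A, its close relative known for expression in liver, was listed at 0 in both knockdowns and stood at 0.149 FPKM (0 to 0.606) in control.

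CA12 and CA13 were near the limit of detection. CA12 stood at 0.294 FPKM (0 to 0.622) in shHNRNPU, 0.266 FPKM (0 to 0.762) in shDIS3L2 and 0.357 FPKM (0.0600 to 0.654) in control, and all intervals overlapped. CA13, a neighbour of CA2 on chromosome 8 at 86132816 to 86196302 in control, was listed at 0 in shHNRNPU and stood at 0.292 FPKM (0 to 0.836) in shDIS3L2 and 0.842 FPKM in control, with a lower bound of 0.184. For CA13 the intervals of shDIS3L2 overlapped with both others. The 0 listed in shHNRNPU lay below the lower bound in control, but the log2 ratio of -0.88 was under the size rule, and the 0 can be a failed estimate. Differences in CA12 were not detectable at this depth.

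Of the 5 members, 3 reached a mean of 1 FPKM and entered the count of calls. In shHNRNPU against control, 1 was called higher (CA9, from 0), 1 lower (CA2) and 1 neither, where 7.47% of 11405 loci were called higher and 6.87% lower, and nothing is read from these counts since the members were chosen from this contrast. Among those of the 11405 loci above 0 in both libraries, 6.31% were called higher and 5.12% lower. After median-of-ratios rescaling the split over all loci was 635 higher and 976 lower, against 852 and 784 as deposited. In shDIS3L2 against control, 0 of 3 were called in either direction, where 8.56% of loci were called higher and 6.8% lower, or 7.19% and 5.09% of those above 0 in both libraries. In shHNRNPU against shDIS3L2, CA9 was higher, again from 0, CA2 lower and CA5B neither, where 9.27% of loci were called higher and 10.1% lower, or 7.92% and 8.49% of those above 0 in both.

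Of the other 10 carbonic anhydrase genes, CA11 was the only one above a mean of 1 FPKM. CA11 encodes a related protein without enzyme activity and stood at 4.84 FPKM (1.41 to 8.27) in shHNRNPU, 9.23 FPKM (6.44 to 12.02) in shDIS3L2 and 9.17 FPKM (6.94 to 11.4) in control. All these intervals overlapped, and against control the log2 ratio of CA11 was -0.80 for shHNRNPU and 0.01 for shDIS3L2. CA1, CA3, CA10 and CA14 were listed at 0 in every library. CA4, CA5A, CA6, CA7 and CA8 did not exceed 0.954 FPKM, the level of CA4 in control. CA1 and CA3, which lie between CA13 and CA2, thus gave no measurement to set beside the lower CA2.

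The order of the members' levels in shHNRNPU differed from that in both other libraries. In shHNRNPU the order was CA9, CA5B and CA2, whose intervals were separate, and then CA12. In shDIS3L2 and in control it was CA2 and then CA5B, with separate intervals, then CA12 and CA13 below 1 FPKM with overlapping intervals. Summed over the 12 genes for catalytic enzymes, the level was 94.4 FPKM in shHNRNPU, 101 FPKM in shDIS3L2 and 137 FPKM in control. Cytosolic enzymes made up 9.01% of that sum in shHNRNPU, 69.5% in shDIS3L2 and 73.4% in control. Membrane enzymes made up 66.4%, 0.604% and 0.960% in shHNRNPU, shDIS3L2 and control, and mitochondrial enzymes 24.6%, 29.8% and 25.7%. Without CA9 the sum was 32.4 FPKM in shHNRNPU, against 101 FPKM in shDIS3L2 and 137 FPKM in control. These are sums of RNA levels per length and do not measure enzyme.

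**Figure D3:**
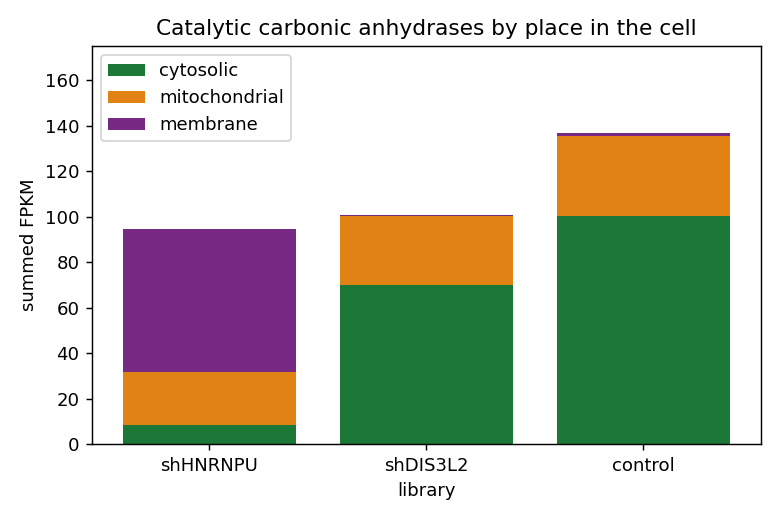
Summed FPKM of the catalytic carbonic anhydrases in each library, stacked by where the enzyme acts. The membrane part in shHNRNPU is nearly all CA9 (62.0 FPKM), which is listed at 0 in shDIS3L2 and control; the cytosolic part is nearly all CA2.

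The genes most like CA2 were those with the smallest Euclidean distance over the 2 log2 ratios against control, among 6374 candidates, which were single-name genes with a mean of at least 5 FPKM and no 0 in any library. DMC1, a recombinase of meiosis, was nearest at a distance of 0.52, with 1.76 FPKM in shHNRNPU, 11.6 FPKM in shDIS3L2 and 21.7 FPKM in control. TRNAU1AP, which serves selenocysteine incorporation, followed at 0.58, with 3.60 FPKM in shHNRNPU, 56.5 FPKM in shDIS3L2 and 54.6 FPKM in control. MCCC2, a subunit of the bicarbonate-using methylcrotonyl-CoA carboxylase, was the third at 0.59. No gene lay within 0.5 of CA2.

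For CA9 this search could not find genes with the same 0s, since candidates had no 0 in any library. The place of CA9 also depends on the pseudocount, with a log2 ratio in shHNRNPU against control of 9.28 at 0.1, 5.98 at 1 and 3.74 at 5. With the 0s of CA9 entered as listed, the nearest candidate, at 1.66, was C1orf64. It stood at 38.3 FPKM in shHNRNPU, 0.980 FPKM in shDIS3L2 and 0.978 FPKM in control. MIR3648 and VCX3A followed at 2.58 and 2.87. For CA12, whose log2 ratios were near 0, 1802 genes lay within 0.5, and the nearest were SNX1, MANBAL and NDUFA2. The likeness rests on 3 libraries.

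**Figure D4:**
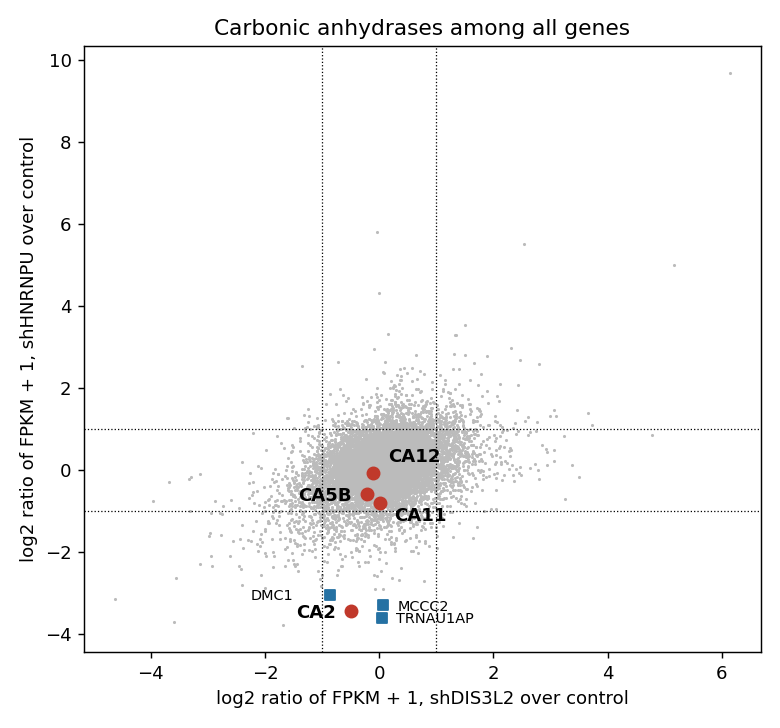
Log2 ratio of FPKM + 1 against control for shDIS3L2 (horizontal) and shHNRNPU (vertical), which share the control library. Grey points are genes above 0 in all libraries with a mean of at least 1 FPKM, and red points CA2, CA5B, CA12 and CA11. Blue squares are the 3 genes most like CA2, and dotted lines mark -1 and 1. CA4, below 1 FPKM in every library, is not drawn. CA2 lies at -0.50 and -3.42; CA9 and CA13 are left out because they are listed at 0 in a library.

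Genes that move acid and bicarbonate across membranes were compared as a list, chosen with earlier results of these data known. Of 8 measured genes of the bicarbonate transporter families SLC4 and SLC26, 0 were called in shHNRNPU against control (median log2 ratio -0.08). In shDIS3L2, 2 were called higher (median -0.41). Membership is by family, and not every member need carry bicarbonate. Among the 8, SLC4A5 was measured only as a locus merged with DCTN1. Over all loci the medians were 0.11 in shHNRNPU and 0.09 in shDIS3L2, and the shares called were 7.47% higher and 6.87% lower in shHNRNPU, and 8.56% higher and 6.8% lower in shDIS3L2. The same shares apply to the other lists. The 2 were SLC4A3, a chloride-bicarbonate exchanger, at 4.99 FPKM in shDIS3L2 and 1.33 FPKM in control, and SLC4A7, a sodium-bicarbonate cotransporter, at 4.25 FPKM in shDIS3L2 and 1.53 FPKM in control, whose call was lost on rescaling (log2 ratio 0.98). In shHNRNPU against shDIS3L2, SLC4A3 was called lower, at 1.58 FPKM in shHNRNPU. The exchanger SLC4A2, like BSG, CPS1, VEGFA, LDHA, ANKRD37 and ENO2 further on, was picked after the values were seen. It stood at 112 FPKM in shHNRNPU, 105 FPKM in shDIS3L2 and 141 FPKM in control and was not called.

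Of 7 measured proton and lactate exporters, 1 was called lower and 1 higher in shHNRNPU, and 1 higher in shDIS3L2, with medians of -0.01 and 0.50. The lower one was SLC16A1, the lactate transporter MCT1, at 5.00 FPKM (4.21 to 5.79) in shHNRNPU, against 24.3 FPKM (22.6 to 25.9) in shDIS3L2 and 20.04 FPKM (18.8 to 21.3) in control. The interval of shHNRNPU lay apart from both others, as it did for CA2. The higher one, in both knockdowns, was SLC9A5, listed at 0 in control. The chaperone of MCT1, BSG, stood at 855 FPKM in shHNRNPU, 851 FPKM in shDIS3L2 and 766 FPKM in control. Of 18 measured subunits and partners of the V-ATPase, the proton pump of acid organelles, 0 were called in shHNRNPU (median 0.32). In shDIS3L2, ATP6V0E1 was called higher, at 312 FPKM against 110 FPKM in control, and the locus of ATP6V1G2, merged with DDX39B, lower, at 170 FPKM against 343 FPKM in control (median 0.20). The locus of ATP6V0E1 was merged with CTC-308K20.4 in shDIS3L2 alone.

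All 10 bicarbonate-using enzymes of the list were measured, with 1 called lower in shHNRNPU (median -0.07) and 1 higher and 1 lower in shDIS3L2 (median -0.12). MCCC2 was the lower one, at 1.85 FPKM (1.29 to 2.40) in shHNRNPU, against 28.2 FPKM in shDIS3L2 and 26.8 FPKM in control. PCCA, a subunit of propionyl-CoA carboxylase, was called higher in shDIS3L2, at 20.3 FPKM against 7.29 FPKM in control. CAD, the first enzyme of pyrimidine synthesis, was called lower in shDIS3L2, at 17.2 FPKM against 285 FPKM in control, but its locus was merged with ATRAID in control and shHNRNPU and not in shDIS3L2. In shHNRNPU against shDIS3L2, PCCA was called lower, at 8.22 FPKM in shHNRNPU, and MCCC2 lower and CAD higher. CPS1, which uses mitochondrial bicarbonate in the urea cycle, stood at 2.26 FPKM in shHNRNPU, 1.17 FPKM in shDIS3L2 and 1.32 FPKM in control and was not called. Of 7 proton-sensing receptors and channels, 3 were measured, with GPR4 at a locus merged with OPA3. ASIC3, listed at 0 in control, was called higher in shDIS3L2 against control.

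The HIF pathway, to which CA9 belongs, was measured in the same way. HIF1A, the oxygen-regulated subunit, stood at 31.5 FPKM (29.8 to 33.2) in shHNRNPU, 51.9 FPKM (48.8 to 55.1) in shDIS3L2 and 15.4 FPKM (14.3 to 16.5) in control, at a locus merged with SNAPC1. It was called higher in shDIS3L2 (log2 ratio 1.69) and lay just under the size rule in shHNRNPU (0.99). HIF activity is set largely by protein stability, which RNA levels do not show. The prolyl hydroxylase EGLN1, which marks HIF for breakdown, stood at 18.1 FPKM in shHNRNPU, 32.6 FPKM in shDIS3L2 and 12.2 FPKM in control and was called higher in shDIS3L2. EPAS1, the HIF-2 subunit, stood at 106 FPKM in shHNRNPU, 129 FPKM in shDIS3L2 and 73.0 FPKM in control. VHL, the ubiquitin ligase subunit, stood at 34.9 FPKM in shHNRNPU, 18.4 FPKM in shDIS3L2 and 17.5 FPKM in control.

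ARNT, the partner subunit, stood at 11.5 FPKM in shHNRNPU, 7.05 FPKM in shDIS3L2 and 13.7 FPKM in control. HIF1AN, which blocks the HIF activation domain, stood at 12.9 FPKM in shHNRNPU, 5.37 FPKM in shDIS3L2 and 9.39 FPKM in control, and EGLN3 was below 0.2 FPKM in every library. In all, 0 of 10 measured HIF factors were called in shHNRNPU (median 0.53) and 2 were called higher in shDIS3L2 (median -0.17). HIF1AN and the coactivator-binding protein gene CITED2 were called higher in shHNRNPU against shDIS3L2, with log2 ratios of 1.12 and 1.09.

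Among 25 measured HIF targets other than the carbonic anhydrases, 7 were called higher and 1 lower in shHNRNPU (median 0.33), and 3 higher and 1 lower in shDIS3L2 (median 0.00). Of all loci, 7.47% were called higher and 6.87% lower in shHNRNPU, and 8.56% higher and 6.8% lower in shDIS3L2. With members listed at 0 left out, 6 were higher and 0 lower in shHNRNPU, where 6.31% and 5.12% of all loci above 0 in both libraries were. After rescaling, which shifted the median log2 ratio of all loci by -0.14 in shHNRNPU and -0.10 in shDIS3L2 against control, 5 targets were higher and 1 lower in shHNRNPU, and 2 higher and 1 lower in shDIS3L2. The 7, the 6 and the 5 all counted PFKFB4, whose locus was merged differently in shHNRNPU. The 7 and the 6 counted SLC2A3 and HK1, whose calls were lost on rescaling. The 7 and the 5 counted ANKRD37, listed at 0 in control, and the 1 lower in shHNRNPU was ENO2, listed at 0 there. ADM, which encodes the peptide adrenomedullin, was higher in both, at 88.2 FPKM in shHNRNPU and 59.4 FPKM in shDIS3L2, against 16.5 FPKM in control. BNIP3L, a mitophagy receptor, stood at 15.2 FPKM in shHNRNPU, 5.29 FPKM in shDIS3L2 and 5.91 FPKM in control, and was called higher in shHNRNPU against both others. INSIG2, a regulator of sterol synthesis, was called higher in shHNRNPU, at 4.85 FPKM against 1.70 FPKM in control. PFKFB4, a regulator of glycolysis, stood at 159 FPKM in shHNRNPU, against 9.60 FPKM in control, but its locus was merged with SHISA5 in shHNRNPU alone.

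The glucose transporter SLC2A3 was called higher in shHNRNPU, at 222 FPKM, and lower in shDIS3L2, at 49.1 FPKM, against 104 FPKM in control. HK1, hexokinase, was called higher in shHNRNPU, at 19.1 FPKM, against 5.40 FPKM in shDIS3L2 and 8.78 FPKM in control. NDRG1 and ANGPTL4 were called higher in shDIS3L2, with log2 ratios of 1.54 and 1.10. SLC2A3 and HK1 in shHNRNPU and ANGPTL4 in shDIS3L2 lost their calls against control on rescaling, with log2 ratios of 0.94, 0.89 and 0.98. VEGFA was not called in either knockdown, at 18.0 FPKM in shHNRNPU, 22.2 FPKM in shDIS3L2 and 22.2 FPKM in control. LDHA, lactate dehydrogenase, stood at 560 FPKM in shHNRNPU, 531 FPKM in shDIS3L2 and 610 FPKM in control, without a call. ANKRD37 had the pattern of CA9, with 9.43 FPKM (7.86 to 11.0) in shHNRNPU and a listing at 0 in shDIS3L2 and control. ENO2, an enolase gene and the target called lower in shHNRNPU, had the opposite pattern. It was listed at 0 in shHNRNPU and stood at 10.0 FPKM in shDIS3L2 and 6.89 FPKM in control. Its locus was merged with other names in shHNRNPU alone.

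**Figure D5:**
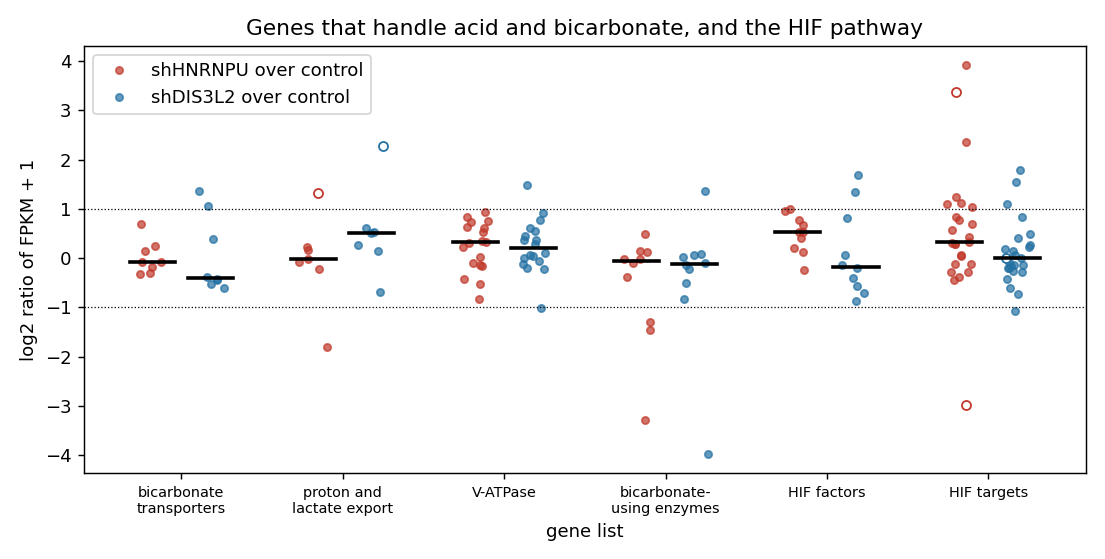
Log2 ratio of FPKM + 1 against control for the measured members of each list in shHNRNPU and shDIS3L2. Each point is a gene, black bars are medians, dotted lines mark -1 and 1, and open points are genes listed at 0 in either library. HIF targets have a median of 0.33 in shHNRNPU and 0.00 in shDIS3L2.

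Several hepatocyte markers were called in each knockdown against control, for the most part different ones, and bile duct markers in shDIS3L2 against control. The 12 hepatocyte markers summed to 8026 FPKM in shHNRNPU, 3573 FPKM in shDIS3L2 and 13742 FPKM in control. Most of that sum was SERPINA1, at 6710 FPKM in shHNRNPU, 2865 FPKM in shDIS3L2 and 11439 FPKM in control, which was not called in shHNRNPU (log2 ratio -0.77) and was called lower in shDIS3L2. Of the 12, 5 were called lower in shHNRNPU, where 6.87% of all loci were. In shDIS3L2, 5 were called lower and 1 higher, where 6.8% of all loci were lower and 8.56% higher. Only ALB was called lower in both knockdowns. The higher one was FGB, with a log2 ratio of 1.39 in shDIS3L2, and it was called lower in shHNRNPU, at -1.30. The fibrinogen gene FGA was the furthest in shHNRNPU, at 195 FPKM against 564 FPKM in control, and APOA1 in shDIS3L2, at 18.9 FPKM against 311 FPKM in control. The 6 bile duct markers summed to 87.5 FPKM in shHNRNPU, 133 FPKM in shDIS3L2 and 82.0 FPKM in control. Of the 3 above the filter, 0 were called in shHNRNPU, and KRT7 and SOX9 were called higher in shDIS3L2, with log2 ratios of 2.04 and 1.12, while CFTR and SPP1 were listed at 0 in shHNRNPU. Of 10 blood cell markers, 4 were above the filter, but 1 of these was the locus of CD68, merged with EIF4A1 and SENP3 in every library. HBA1 and HBA2, near-identical globin genes, were called higher and LYZ lower in shHNRNPU. In shDIS3L2, LYZ was called lower. Their part in the values of CA2 and CA9 was not tested.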

How the data were processed

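FPKM per gene with a lower and an upper bound were deposited by the authors for 3 libraries, per the file headers, and TopHat2 2.0.12, Cufflinks 2.2.1 with hg19 as the build come from the submitters' processing notes. The bounds of a locus and the names merged in it differ between the deposited tables for some genes, and an exact 0 can be a failed estimate. A value at a merged locus belongs to all its names, also for list members whose merging is not mentioned. The level of the bounds is not stated and was taken as 95%, the default of Cufflinks. The members and lists were chosen with earlier results of these data known.

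Loci were matched by name with pandas 2.3.3. Of 55827 names, 276 with several loci were left out, and names that share a locus in any library counted once, leaving 52019 loci, 11405 of them with a mean FPKM of at least 1. FPKM were used as deposited, with a pseudocount of 1 on the log2 scale. That the rule for calls recovers changes of 4-fold up or down was tested on data simulated with counting error only. Those data held no failed estimates and no merged loci, and say nothing of error between cultures. Named genes were the 5 members, their relatives and neighbours, the nearest genes in pattern, the HIF factors, and up to 4 called members of each list per comparison, with others said to be picked after seeing the values. Fragment numbers were worked out as if the bounds were 2 Poisson SDs away. Among values of up to 20 fragments, 28.5%, 30.2% and 29.9% in shHNRNPU, shDIS3L2 and control came out whole within 0.02, so no count test was run. Depth was the median over single-exon genes that did, and is approximate. The other settings were pseudocounts, thresholds, interval widths, filters and median-of-ratios rescaling. One marker gene is not reported here by name.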

Additional observations from a re-analysis of the deposited data

Results flagged for a closer look

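A locus without a gene name was listed near CA2 in shHNRNPU, outside the genes compared. It lay on chromosome 8 at 86375284 to 86375968 (hg19), 112 bases before the start of CA2, and stood at 1.81 FPKM (0.933 to 2.69). No such locus was listed within 5 kb of CA2 in shDIS3L2 or control. The gene RP11-317J10.2, whose locus overlaps the start of CA2, stood at 0.905 FPKM (0 to 1.93) in shHNRNPU and was listed at 0 in shDIS3L2 and control. Its locus, at 86354080 to 86377144, holds the whole of the locus without a name, so the 2 are not separate regions. Each value is from 1 library, and the cause was not tested.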

How the results depend on the processing

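No paired analysis was possible because each group is 1 library. CA2 stayed called lower in shHNRNPU against control under both other pseudocounts and median-of-ratios rescaling, with log2 ratios of -3.57 to -2.97. The number of carbonic anhydrases called higher in shHNRNPU, 1 against control and 1 against shDIS3L2, was 0 in both without genes listed at 0, since CA9 then drops out. With a pseudocount of 0.1, CA13 had a log2 ratio of -3.24 in shHNRNPU against control, with its value listed at 0. Its mean was below 1 FPKM, so it did not enter the count of calls, and the number called lower stayed at 1. Over all genes in shHNRNPU against control, 852 were higher and 784 lower, and 2203 and 1523 at 1.5-fold, 201 and 269 at 4-fold, 359 and 461 with a pseudocount of 5, and 538 higher with the filter at 5. In shDIS3L2 against control, 976 were higher and 776 lower, and 2153 and 1626 at 1.5-fold, 247 and 252 at 4-fold, and 484 and 408 with a pseudocount of 5. In shHNRNPU against shDIS3L2, 1057 were higher and 1156 lower, and 2238 and 2117 at 1.5-fold, 244 and 317 at 4-fold, and 496 and 656 with a pseudocount of 5. These shifts follow from the thresholds and the pseudocount themselves. Rescaling of the lists was chosen after seeing the data; it ended 4 calls, of SLC2A3, HK1, SLC4A7 and ANGPTL4, and added 3 among hepatocyte markers, of APOB in shHNRNPU and AFP and FGA in shDIS3L2. Intervals of CA12 and CA13 reached 78.2% or more of the FPKM to either side, which limits what can be seen of them.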

Other observations

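The neighbours of the other members had patterns of their own. Next to CA12, the trafficking GTPase gene RAB8B stood at 4.68 FPKM in shHNRNPU, 3.38 FPKM in shDIS3L2 and 1.87 FPKM in control, and the gamma-secretase subunit gene APH1B at 12.7 FPKM in shHNRNPU, 3.92 FPKM in shDIS3L2 and 8.39 FPKM in control, and neither was called against control. APH1B was called higher in shHNRNPU against shDIS3L2. Next to CA13, C8orf59 was called higher in shDIS3L2, at 195 FPKM against 95.8 FPKM in control, and stood at 107 FPKM in shHNRNPU. The cell cycle gene E2F5 stood at 3.74 FPKM in shHNRNPU and 7.18 FPKM in control and was listed at 0 in shDIS3L2, where it was called lower against control with the 0 taken as listed. Next to CA5B, TMEM27, which encodes collectrin, was called lower in shHNRNPU, at 0.787 FPKM (0.457 to 1.12) against 3.70 FPKM (3.04 to 4.37) in control, and stood at 1.53 FPKM in shDIS3L2. The splicing factor gene ZRSR2 stood at 6.74 FPKM in shHNRNPU, 13.1 FPKM in shDIS3L2 and 7.89 FPKM in control, and AP1S2 at 10.1 FPKM, 13.1 FPKM and 9.94 FPKM in the same order, without a call. No gene with a mean of at least 1 FPKM lay within 100 kb of CA2.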
